A study of Homo sapiens with 15 samples.

Results

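Collagens are the rod-like proteins of the extracellular matrix, each built from 3 chains wound into a triple helix, and every chain has a gene of its own. Fibrillar collagens (types I, II, III, V, XI, XXIV and XXVII) form the ropes of connective tissue, network collagens (types IV, VIII and X) form sheets such as the basement membrane under epithelia, and transmembrane collagens stay anchored in the cell surface. The remaining classes decorate fibrils (the fibril-associated collagens with interrupted triple helices, FACIT), form beaded microfilaments (type VI), anchor skin to its basement membrane (type VII) or belong to the multiplexins, whose cleaved ends act as signals. The collagen genes were taken as every listed gene whose symbol is COL, a number, A and a number. This rule found 44 genes of 35805 listed, of which 28 had log2 values of -2 or more in 3 or more libraries and were tested among 16787 genes. Of the 28, 21 reached that level in every library, and 0 passed through the libraries of 1 pooled group only.

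RNA-seq was done on HEK-293T cells, a line derived from human embryonic kidney, to find genes that depend on THAP1, a zinc finger transcription factor mutated in an inherited dystonia. There were 5 groups of 3 libraries: cells given Cas9 with sg1-THAP1 or with sg2-THAP1, different guides to THAP1, cells given Cas9 with sg1-Control or with sg2-Control, and untransduced cells labelled as wild type. The THAP1 guides together are called sgTHAP1 and the control guides together sgControl, with 6 libraries each. The study's methods describe lentiviral delivery with puromycin selection, a reporter line with GFP at the PSMB5 promoter that came from a single cell and also carried added PSMB5, and a sort of the THAP1-guide cells for dim GFP. The sorted cells were populations and not clones. The labels do not say whether the control and untransduced cells carried the reporter or the added PSMB5. The sort, and any difference in the reporter or the added PSMB5, therefore cannot be told apart from the differences between sgTHAP1 and sgControl. Both of these were given Cas9 and a guide. In the comparisons with untransduced cells, the virus, the selection and Cas9 cannot be told apart from the differences either.

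Libraries held 30645102 to 47754883 reads in sgTHAP1, 31900201 to 56638461 in sgControl and 30400149 to 36548571 in untransduced cells. Levels are given as log2 RPM, where RPM is a gene's reads per 1000000 reads of its library. The THAP1 transcript stood at 5.48 to 6.18 log2 RPM in sgTHAP1, 3.25 to 3.57 in sgControl and 3.36 to 3.46 in untransduced libraries. It was thus higher in sgTHAP1 than in sgControl, by 2.38 ± 0.108 on the log2 scale (limma adjusted p = 6.28e-13). The cause of this rise was not tested. A transcript level does not show whether the gene was cut, so the loss of THAP1 is not checked here. All 7 markers of the HEK-293T line were tested, and their summed level was 1287 to 1481 RPM in sgTHAP1, 1091 to 1223 in sgControl and 1390 to 1424 in untransduced libraries. Fibroblasts are the main collagen producers of tissues, and 2 of 7 fibroblast markers (LUM and PDGFRA) were tested. The summed level of the 7 was 0.0326 to 0.182 RPM in sgTHAP1, 0.256 to 0.627 in sgControl and 1.70 to 2.40 in untransduced libraries, with at most 1 read of POSTN and of FAP in any library and at most 5 of THY1. The order of these sums rested mainly on LUM and PDGFRA. LUM had a mean of -5.14 log2 RPM in sgTHAP1, -3.12 in sgControl and 0.22 in untransduced cells, and PDGFRA -4.32, -2.78 and -0.84. DCN and PDGFRB had at most 6 and 5 reads in a library, and THY1 had 0 in sgTHAP1 and untransduced libraries. LUM and PDGFRA, but not the list as a whole, moved in the same order as the collagens described below. Their part in them was not tested. In bulk RNA, fewer cells of a type and less RNA per cell cannot be told apart.

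HEK-293T cells made RNA of some collagen genes and little or none of others. The filter was passed by 28 of the 44, beside 16787 of all 35805 listed genes. A mean of at least 1 RPM was reached by 18 collagen genes in sgTHAP1, 19 in sgControl and 25 in untransduced cells, and of at least 10 RPM by 7, 10 and 12 genes in the same order of groups. The 16 genes left untested had at most 13 reads in any library. They were COL8A2, COL11A1, COL3A1, COL6A3, COL8A1, COL6A6, COL21A1, COL9A1, COL10A1, COL28A1, COL1A2, COL22A1, COL15A1, COL17A1, COL5A3 and COL20A1. COL22A1 had 0 reads in all 12 transduced libraries, and 0 reads in a library allow up to 3 reads, or 0.053 to 0.0987 RPM by depth. Several chains were thus measured without the partner they assemble with in tissues. COL1A1, the main chain of type I collagen, had at least 132 reads in sgTHAP1, 305 in sgControl and 805 in untransduced libraries, while its partner COL1A2 had at most 3 reads in any library. COL6A3, the large chain of type VI, had at most 10 reads in a library against 2659 to 6726 of COL6A1 in the transduced ones.

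Per kilobase of transcript, COL6A1 was the most abundant collagen RNA in all 3 groups, with 22.1 RPM per kb in sgTHAP1, 28.2 in sgControl and 35.3 in untransduced cells. In sgTHAP1 it was followed by COL6A2 at 9.30, COL4A2 at 7.29, COL18A1 at 5.95 and COL4A1 at 2.74 RPM per kb. In untransduced cells the order after COL6A1 was COL4A2 at 12.4, COL6A2 at 11.9, COL18A1 at 10.9, COL4A5 at 6.25 and COL27A1 at 5.28 RPM per kb. COL6A1 alone made up 31.7% of collagen reads in sgTHAP1, 27.8% in sgControl and 25.0% in untransduced cells.

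The reads of all 44 collagen genes summed to 293 ± 10.3 RPM in sgTHAP1 (SD, n = 6), 426 ± 11.7 RPM in sgControl (n = 6) and 593 ± 12.8 RPM in untransduced cells (n = 3). The 3 ranges, 276 to 303, 414 to 442 and 579 to 604 RPM, did not overlap. Network collagens summed to 89.5 RPM in sgTHAP1, 145 in sgControl and 187 in untransduced cells. Fibrillar collagens summed to 22.7, 42.2 and 92.7 RPM in that order of groups, and transmembrane collagens to 8.32, 18.5 and 36.1 RPM. Fibrillar and transmembrane sums in sgTHAP1 were thus 24.5% and 23.1% of those in untransduced cells. The beaded filament class, nearly all of it COL6A1 and COL6A2, kept 66.1%, with 125 RPM in sgTHAP1, 152 in sgControl and 190 in untransduced cells.

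**Figure D1:**
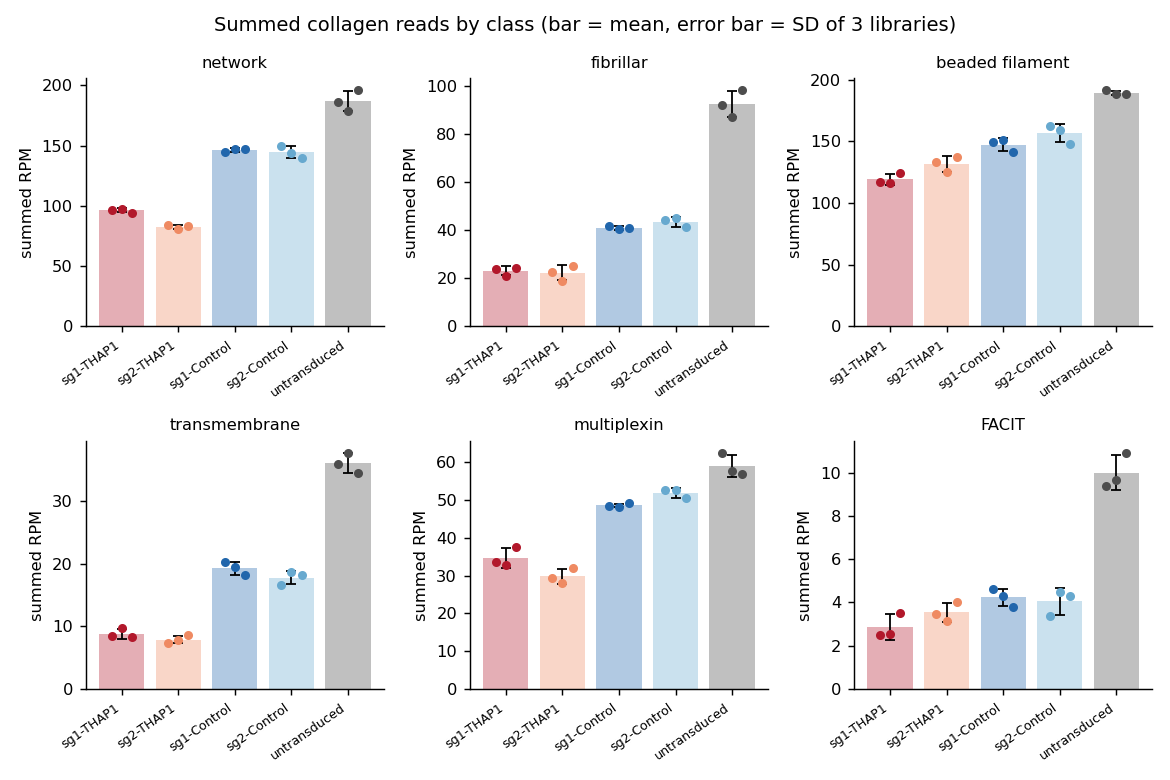
Summed RPM of the collagen genes of 6 classes in each of the 5 groups; points are libraries, bars the mean and error bars the SD of 3 libraries. In every panel but that of FACIT, every sgTHAP1 library lies below every sgControl library, and every sgControl library below every untransduced one.

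**Figure D2:**
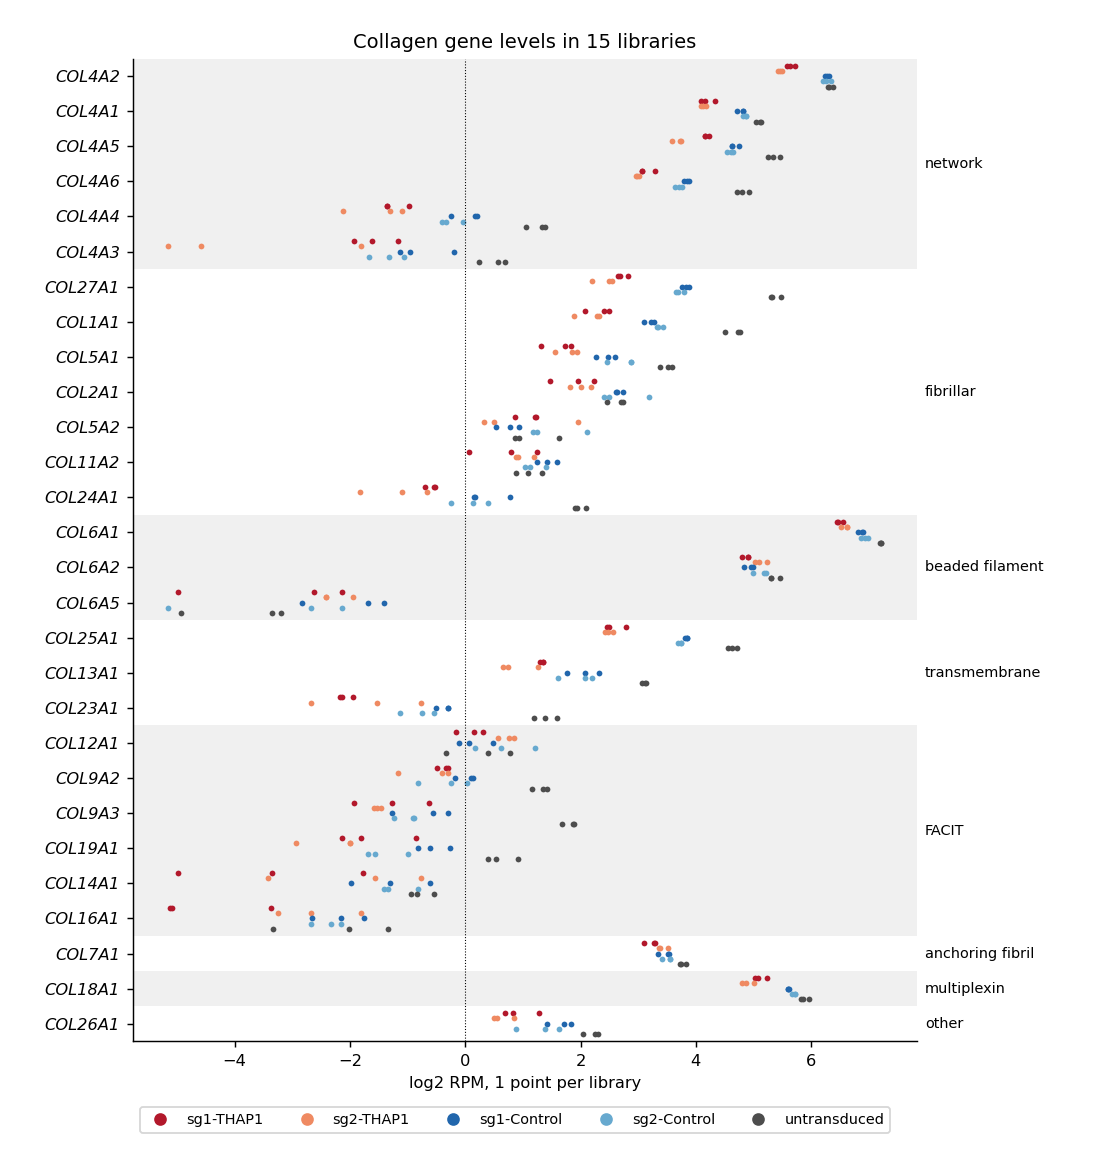
Level in log2 RPM of each tested collagen gene, 1 point per library, with genes grouped by class and ordered by mean level within it, and groups from sg1-THAP1 at the top of each row to untransduced at the bottom. The dotted line marks 1 RPM; for 12 of the 28 genes the sgTHAP1, sgControl and untransduced points form 3 separate blocks from left to right.

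The first question of the design was which genes differed between cells with a THAP1 guide and cells with a control guide. Collagen genes were lower in sgTHAP1 in nearly every class, and none was higher. At an adjusted p under 0.05 (limma over all 16787 genes, Benjamini-Hochberg), 21 of 28 were lower, against 32.6% of all genes tested, and 0 were higher, against 20.2% of all genes. The fitted change was negative for 27 of 28, with a median of -0.72 against -0.06 over all genes tested, both on the log2 scale. At the study's own thresholds, an adjusted p under 0.001 and more than 2-fold, 6 collagen genes were lower (COL23A1, COL4A4, COL25A1, COL27A1, COL24A1 and COL1A1), against 1.83% of all genes, and 0 were higher, against 0.346%. The study set aside genes that also passed when sgControl was compared with untransduced cells. That step left 1 collagen gene, COL25A1, and 1.19% of all genes on the lower side (0.232% on the higher). For 14 of 28 every sgTHAP1 library lay below every sgControl library, against 19.9% of all genes. Scaling each library to its median gene in place of its total moved the median of all genes by more than 0.1 (to 0.05). All genes at an adjusted p under 0.05 then split into 3742 lower and 5363 higher, against 5476 lower and 3390 higher with the totals. With the median scaling 19 collagen genes were lower, 0 were higher, and their median was -0.60.

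The 2nd question was how cells given Cas9 and a control guide differed from untransduced cells. Here too the collagens were lower. Between sgControl and untransduced cells 9 of 28 passed an adjusted p under 0.001 and 2-fold on the lower side, against 8.76% of all genes, and 0 on the higher side, against 2.29%. At an adjusted p under 0.05, 20 were lower, against 40.5% of all genes, and 0 higher, against 28.1%. Their median was -0.72 against -0.12 over all genes. In 20 of 28 every sgControl library was below every untransduced one, against 39.8% of all genes. With quantile normalization 18 collagen genes were lower and 4 were higher, beside 5314 lower and 5659 higher of all 16787 genes. With the median scaling 15 were lower and 0 higher, beside 5072 lower and 6353 higher of all genes. With the totals, all genes split into 6799 lower and 4724 higher.

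Between sgTHAP1 and untransduced cells, 15 of 28 passed the stricter thresholds on the lower side, against 13.4% of all genes, and 23 were lower at an adjusted p under 0.05, against 45.5%. None was higher by either rule, against 2.52% and 26.9% of all genes. With quantile normalization 20 were lower and 3 higher at an adjusted p under 0.05, beside 5524 lower and 6065 higher of all genes, which with the totals split into 7642 lower and 4515 higher. The median was -1.58, against -0.20 over all genes. In 22 genes the sgTHAP1 libraries all lay below the untransduced ones, against 41.4% of all genes. The 3 groups were fully ordered, sgTHAP1 below sgControl below untransduced, in 12 of 28 genes, against 7.62% of all genes. The sgControl libraries enter the first 2 comparisons and the sgTHAP1 and untransduced libraries enter 2 each, so the 3 sets of values are not independent.

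**Figure D3:**
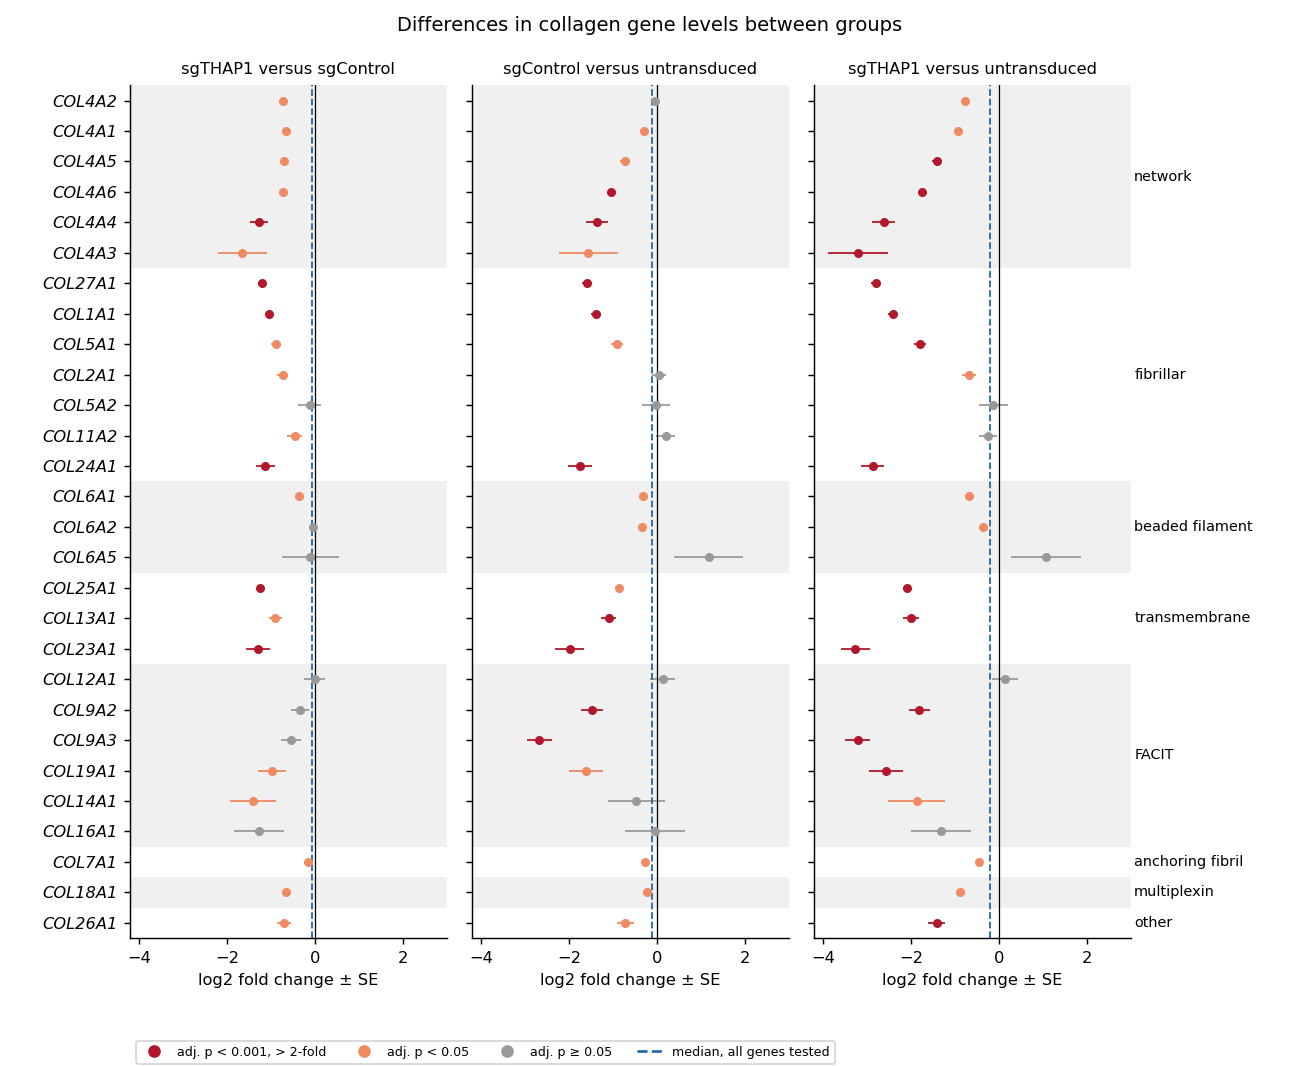
Fitted log2 fold change with its SE of each tested collagen gene in the 3 comparisons; colours give the adjusted p and the 2-fold rule, the solid line is 0 and the dashed line the median of all genes tested. Most points lie left of the dashed line in each panel, and COL6A2, COL12A1, COL5A2 and COL6A5 lie closest to 0 in the sgTHAP1 versus sgControl panel.

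All 6 tested genes of type IV collagen, the basement membrane network, were lower at an adjusted p under 0.05 in sgTHAP1 against sgControl. The share of all genes was 32.6%, and the changes of the 6 were -0.65 to -1.65. The type IV genes stand in the genome as 3 pairs whose members are transcribed away from each other, COL4A1 with COL4A2, COL4A3 with COL4A4 and COL4A5 with COL4A6. Type IV collagen of most basement membranes is made of COL4A1 and COL4A2, and the kidney filter uses COL4A3, COL4A4 and COL4A5. In the deposited GRCh38 coordinates, COL4A1 runs from 110148963 to 110307149 on the minus strand of chromosome 13, and COL4A2 from 110305812 to 110513027 on the plus strand, so that they overlap by 1338 bp. COL4A4 and COL4A3 start 452 bp apart on chromosome 2 (starts at 227164113 and 227164565), and COL4A6 and COL4A5 start 347 bp apart on chromosome X (starts at 108439497 and 108439844). The RefSeq promoter windows run from 250 bases before to 50 after the start (GRCh38.p14, 5′ to 3′ on the gene's strand). Shown are those of 1 member of each pair, since both members were lower, and that of COL25A1, left by the removal step. They lie at chr13:110307034-110307333 on the plus strand for COL4A2, chr2:227164374-227164673 on the plus strand for COL4A3, chrX:108439588-108439887 on the plus strand for COL4A5 and chr4:109302609-109302908 on the minus strand for COL25A1. The RefSeq start of COL4A2 differs from the deposited one. Capitals mark every match, on either strand, to 4 motifs: TNNNGGCA, the core bound by THAP1, AANATGGCG, the site of YY1, GGGCGG, the GC box of Sp1-like factors, and CCAAT.
COL4A2: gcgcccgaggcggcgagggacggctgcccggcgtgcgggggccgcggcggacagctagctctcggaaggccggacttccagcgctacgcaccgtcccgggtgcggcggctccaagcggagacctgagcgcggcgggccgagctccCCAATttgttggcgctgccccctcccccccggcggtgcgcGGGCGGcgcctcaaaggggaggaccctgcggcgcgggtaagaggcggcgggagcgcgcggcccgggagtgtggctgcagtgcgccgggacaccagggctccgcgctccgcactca
COL4A3: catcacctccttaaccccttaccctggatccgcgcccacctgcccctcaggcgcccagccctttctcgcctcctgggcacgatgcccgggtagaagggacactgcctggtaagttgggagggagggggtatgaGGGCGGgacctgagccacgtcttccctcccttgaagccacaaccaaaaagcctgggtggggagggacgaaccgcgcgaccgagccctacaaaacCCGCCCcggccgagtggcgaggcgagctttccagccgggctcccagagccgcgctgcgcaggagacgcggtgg
COL4A5: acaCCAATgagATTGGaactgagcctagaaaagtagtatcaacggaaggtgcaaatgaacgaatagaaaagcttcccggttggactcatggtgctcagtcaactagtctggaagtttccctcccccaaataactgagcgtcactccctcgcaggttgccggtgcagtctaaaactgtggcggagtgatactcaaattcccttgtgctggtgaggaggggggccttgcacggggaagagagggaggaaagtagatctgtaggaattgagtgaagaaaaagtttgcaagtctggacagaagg
COL25A1: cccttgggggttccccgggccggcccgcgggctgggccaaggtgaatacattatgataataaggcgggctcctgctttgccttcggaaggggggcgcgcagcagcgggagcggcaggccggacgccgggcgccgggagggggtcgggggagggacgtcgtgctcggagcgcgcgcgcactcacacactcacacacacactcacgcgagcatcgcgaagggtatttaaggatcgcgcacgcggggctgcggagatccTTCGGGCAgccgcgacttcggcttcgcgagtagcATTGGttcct
In the COL4A2 window the CCAAT match begins at base 146 and the GC box at base 186, counted from 1 at the 5′ end. The COL4A3 window has GC boxes at bases 134 and 228, the second on the opposite strand, and the COL4A5 window has CCAAT matches at bases 4 and 12, the second on the opposite strand. The COL25A1 window has a THAP1 core match at base 257 and a CCAAT match on the opposite strand at base 291. No 2 marked matches overlapped. A match is a description of letters and not a measured site.

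Of the 28 tested collagen genes, 21 had 1 or more RefSeq windows. A collagen gene was counted if any of its windows matched, while the share of all promoters is per single window. The 32 collagen genes with a window, tested or not, had 44 windows, and a gene with several had more chances to match. The shares are thus of unlike units. TNNNGGCA was found in 11 of the 21 genes, 52.4%, against 41.7% of 35116 promoter windows of the same length. AANATGGCG was found in 1 of 21, against 3.19% of all windows, GGGCGG in 15, 71.4%, against 45.0%, and CCAAT in 6, 28.6%, against 34.6%.

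COL4A2 had 5.72, 5.59 and 5.63 log2 RPM in sg1-THAP1 libraries, 5.49, 5.42 and 5.45 in sg2-THAP1, 6.24, 6.31 and 6.27 in sg1-Control, 6.34, 6.26 and 6.20 in sg2-Control, and 6.31, 6.29 and 6.37 in untransduced libraries. The sgTHAP1 libraries stood apart below all others, while sgControl and untransduced libraries overlapped. The change was -0.72 ± 0.046 (SE) in sgTHAP1 against sgControl, with a limma adjusted p of 1.02e-10, and -0.05 ± 0.056 in sgControl against untransduced, adjusted p = 0.424. COL4A1 had a lowest, median and highest level of 4.08, 4.14 and 4.33 log2 RPM in sgTHAP1, 4.71, 4.81 and 4.87 in sgControl, and 5.04, 5.11 and 5.13 in untransduced libraries. Its change was -0.65 ± 0.047 in sgTHAP1 against sgControl (limma adjusted p = 6.5e-10) and -0.28 ± 0.058 in sgControl against untransduced (adjusted p = 0.000231), which with the median scaling became -0.13 and did not pass (limma adjusted p = 0.0928). Both genes of this pair were thus lower in sgTHAP1, while of the 2 only COL4A1 passed the test between sgControl and untransduced cells, with the totals as scale. The ratio of COL4A2 to COL4A1 was not shown to differ between sgTHAP1 and sgControl (exact permutation p = 0.281, or 0.563 adjusted over the 6 ratios of chains tested), and it was not tested between sgControl and untransduced cells.

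COL4A5, the gene of X-linked Alport syndrome, a kidney disease, and its neighbour COL4A6 were lower in both steps. COL4A5 had 4.16, 4.23 and 4.15 log2 RPM in sg1-THAP1, 3.73, 3.58 and 3.74 in sg2-THAP1, 4.54 to 4.75 in sgControl, and 5.33, 5.25 and 5.46 in untransduced libraries. Its 3 groups did not overlap, and neither did its 2 THAP1 guides. COL4A5 changed by -0.70 ± 0.093 in sgTHAP1 against sgControl and by -0.71 ± 0.114 in sgControl against untransduced, with limma adjusted p-values of 2.45e-06 and 1.32e-05. COL4A6 had 2.96, 3.03 and 3.29 log2 RPM as lowest, median and highest in sgTHAP1, 3.64, 3.77 and 3.88 in sgControl, and 4.71, 4.80 and 4.93 in untransduced libraries. It changed by -0.71 ± 0.065 and by -1.04 ± 0.079 in the same comparisons, with limma adjusted p-values of 1.51e-08 and 4.24e-10, and was not past 2-fold in sgControl against untransduced with quantile normalization, with the median scaling or without untransduced replicate 3. The level per kilobase of COL4A5 stood above that of COL4A6 by 0.91 on the log2 scale in sgTHAP1, 0.89 in sgControl and 0.57 in untransduced cells, a ratio whose difference between sgTHAP1 and sgControl did not pass (exact permutation p = 0.918, also after adjustment over 6 such ratios, picked after their values were seen).

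COL4A4 and COL4A3 were rarer. COL4A4 had 11 to 18 reads in sgTHAP1, 27 to 58 in sgControl and 76 to 79 in untransduced libraries, and the 3 groups did not overlap as log2 RPM. It changed by -1.26 ± 0.208 in sgTHAP1 against sgControl (limma adjusted p = 3.41e-05) and by -1.36 ± 0.254 in sgControl against untransduced (adjusted p = 8.57e-05). Its call at the stricter thresholds was lost with a pseudocount of 0.5 RPM in sgTHAP1 against sgControl, and with quantile normalization, without a filter and without untransduced replicate 1 or 3 in sgControl against untransduced. COL4A3 had 8, 14 and 10 reads in sg1-THAP1, 0, 11 and 2 in sg2-THAP1, 10 to 31 in sgControl, and 36, 54 and 49 in untransduced libraries. Its change of -1.65 ± 0.556 in sgTHAP1 against sgControl had a limma adjusted p of 0.0168, and with sg1-THAP1 alone against both control guides that p was 0.36. In the annotation COL4A3 shares 93741 bp with AC097662.2 on the opposite strand, which was higher by 1.83 ± 0.239 in sgTHAP1. Whether reads were counted by strand is not given, so reads of COL4A3 are uncertain.

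Fibrillar collagens had a median change of -0.89 in sgTHAP1 against sgControl and -1.79 against untransduced cells. Of their 7 tested genes, 6 were lower at an adjusted p under 0.05 in sgTHAP1 against sgControl, beside 32.6% of all genes. In sgControl against untransduced 4 were lower, beside 40.5% of all genes. COL27A1, a chain of thin fibrils in cartilage, runs from 114155560 to 114312511 on the plus strand of chromosome 9. It had 192, 203 and 217 reads in sg1-THAP1, 180, 176 and 277 in sg2-THAP1, 412 to 762 in sgControl, and 1214, 1437 and 1354 in untransduced libraries. Scaled to depth, the median was 2.59 and the highest value 2.82 log2 RPM in sgTHAP1, against 3.65 to 3.88 in sgControl and 5.30 to 5.47 in untransduced libraries. The 3 groups were widely separated, and sgTHAP1 held 14.4% of the untransduced level. COL27A1 changed by -1.20 ± 0.082 in sgTHAP1 against sgControl (limma adjusted p = 2.71e-10) and by -1.60 ± 0.101 in sgControl against untransduced (adjusted p = 2.32e-11).

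COL1A1, on the minus strand of chromosome 17 from 50183289 to 50201632, had 1.89, 2.31 and 2.50 log2 RPM as lowest, median and highest in sgTHAP1, 3.11, 3.30 and 3.43 in sgControl, and 4.50, 4.72 and 4.76 in untransduced libraries. The groups did not overlap. The change was -1.04 ± 0.093 in sgTHAP1 against sgControl, with a limma adjusted p of 1.18e-08, and -1.38 ± 0.114 in sgControl against untransduced, with an adjusted p of 1.4e-09. COL1A1 passed the 2-fold rule narrowly in the first comparison. With the median scaling, quantile normalization or a pseudocount of 0.5 RPM, with sg1-THAP1 alone or sg1-Control alone, and without sg2-THAP1 replicate 2, it did not pass it.

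COL5A1, a chain that regulates fibril width, had 1.31 to 1.94 log2 RPM in sgTHAP1, 2.27 to 2.87 in sgControl and 3.38 to 3.59 in untransduced libraries. It fell by 0.89 ± 0.117 in sgTHAP1 against sgControl (limma adjusted p = 2.32e-06), while its partner COL5A2 had 0.32 to 1.95 log2 RPM in sgTHAP1 and 0.53 to 2.10 in sgControl, with a change of -0.11 ± 0.262 and an adjusted p of 0.745. COL5A2 stood highest in 1 library of each pool, sg2-THAP1 replicate 3 and sg2-Control replicate 2. In the other sgTHAP1 and sgControl libraries COL5A2 had at most 1.23 and 1.24 log2 RPM. The ratio of COL5A1 to COL5A2, which includes those 2 libraries, gave an exact permutation p of 0.0238 between sgTHAP1 and sgControl. It did not pass after adjustment over the 6 ratios (0.0714). COL24A1 had 9 to 30 reads in sgTHAP1, 27 to 87 in sgControl and 114 to 140 in untransduced libraries, without overlap as log2 RPM. It changed by -1.12 ± 0.219 and by -1.75 ± 0.268 in the 2 steps, with limma adjusted p-values of 0.000211 and 8.62e-06. It did not pass the stricter thresholds in sgTHAP1 against sgControl in 5 alternatives: sg1-THAP1 alone, both THAP1 guides against sg2-Control alone, quantile normalization, a pseudocount of 0.5 RPM, and without sg2-THAP1 replicate 1. COL2A1, the cartilage collagen, had 1.47 to 2.23 log2 RPM in sgTHAP1, below all of sgControl at 2.40 to 3.19, which overlapped the untransduced 2.45 to 2.73. Its changes were -0.73 ± 0.133 in sgTHAP1 against sgControl (limma adjusted p = 9.95e-05) and 0.05 ± 0.162 in sgControl against untransduced (adjusted p = 0.816). COL11A2, of type XI, changed by -0.45 ± 0.172 (limma adjusted p = 0.0316) and by 0.20 ± 0.211 (adjusted p = 0.412).

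Transmembrane collagens were lower at an adjusted p under 0.05 in all 3 tested members in each comparison. The shares of all genes were 32.6% (sgTHAP1 against sgControl), 40.5% (sgControl against untransduced) and 45.5% (sgTHAP1 against untransduced). COL25A1, a collagen of neurons that is cut from the membrane and found in amyloid plaques, runs from 108810721 to 109302657 on the minus strand of chromosome 4. It had 2.49, 2.79 and 2.46 log2 RPM in sg1-THAP1, 2.43, 2.56 and 2.47 in sg2-THAP1, 3.84, 3.84 and 3.81 in sg1-Control, 3.70, 3.73 and 3.74 in sg2-Control, and 4.62, 4.71 and 4.56 in untransduced libraries. Each group formed a tight block, and the blocks did not overlap. COL25A1 changed by -1.25 ± 0.065 in sgTHAP1 against sgControl (limma adjusted p = 5.09e-12), to 42.2% of the sgControl level, and by -0.85 ± 0.0796 in sgControl against untransduced (adjusted p = 8.66e-09), which is under 2-fold. It was for that reason kept by the removal step as applied here, and a rule without the 2-fold limit would remove it. Permuting the 12 transduced libraries (exact test, two-sided) gave p = 0.00216, the smallest p that 6 against 6 can give. That value follows from the lack of overlap and adds nothing to it. In this direction 14 of the 28 collagen genes and 19.9% of all genes showed the same lack of overlap.

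COL23A1, also shed from the cell surface, had 6 to 28 reads in sgTHAP1, 16 to 46 in sgControl and 70 to 95 in untransduced libraries. As log2 RPM, the highest sgTHAP1 library at -0.77 overlapped sgControl at -1.14 to -0.30. It changed by -1.28 ± 0.274 in sgTHAP1 against sgControl (limma adjusted p = 0.00052), a call that did not pass the stricter threshold in 17 of 28 alternative analyses, and by -1.98 ± 0.336 in sgControl against untransduced (adjusted p = 2.84e-05). COL13A1, a component of the nerve-muscle junction, had 0.65 to 1.35 log2 RPM in sgTHAP1, 1.60 to 2.33 in sgControl and 3.06 to 3.14 in untransduced libraries. It changed by -0.90 ± 0.144 and by -1.10 ± 0.176 in the 2 steps (limma adjusted p = 2.48e-05 and 1.45e-05), and the call between sgControl and untransduced cells was lost with quantile normalization and with the median scaling. COL17A1, the hemidesmosome collagen, had at most 3 reads in a library.

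Of 6 tested FACIT genes, 2 were lower at an adjusted p under 0.05 in sgTHAP1 against sgControl, near the 32.6% of all genes. In sgControl against untransduced cells 3 were lower, beside 40.5% of all genes, and in sgTHAP1 against untransduced cells 4, beside 45.5%. COL9A3 and COL9A2 are chains of type IX collagen, which coats type II fibrils in cartilage. COL9A3 had 8 to 20 reads in sgTHAP1, 15 to 46 in sgControl and 97 to 134 in untransduced libraries. It changed by -0.54 ± 0.235 in sgTHAP1 against sgControl, which did not pass (limma adjusted p = 0.0601), and by -2.67 ± 0.288 in sgControl against untransduced (adjusted p = 7.05e-08), to 15.7% of the untransduced level. COL9A2 had 17 to 36 reads in sgTHAP1, 18 to 62 in sgControl and 78 to 82 in untransduced libraries, with changes of -0.34 ± 0.199 (limma adjusted p = 0.164) and -1.47 ± 0.244 (adjusted p = 2.11e-05), the call of which was lost with quantile normalization. COL19A1 had 5 to 17 reads in sgTHAP1, 11 to 42 in sgControl and 40 to 69 in untransduced libraries, and changed by -0.96 ± 0.319 (limma adjusted p = 0.0154) and by -1.61 ± 0.391 (adjusted p = 0.00118). The first of these changes did not pass with sg1-THAP1 alone, against sg2-Control alone or without a filter, with limma adjusted p-values of 0.0725 to 0.209.

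COL12A1, which binds type I fibrils, did not pass in any comparison, with -0.17 to 0.85 log2 RPM in sgTHAP1, -0.10 to 1.21 in sgControl and -0.33 to 0.77 in untransduced libraries. Its limma adjusted p-values were 0.995 in sgTHAP1 against sgControl and 0.708 in sgControl against untransduced. COL14A1 and COL16A1 had 1 to 28 and 0 to 11 reads in sgTHAP1 libraries, against 9 to 33 and 5 to 15 in sgControl. They changed by -1.40 ± 0.528 (limma adjusted p = 0.0312) and by -1.27 ± 0.56 (adjusted p = 0.0636).

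Type VI collagen, which forms beaded filaments close to the cell surface, was measured through COL6A1, COL6A2 and COL6A5. Of these, 1 was lower at an adjusted p under 0.05 in sgTHAP1 against sgControl, near the 32.6% of all genes. COL6A1, on the plus strand of chromosome 21 from 45981737 to 46005050, had 6.44, 6.54 and 6.63 log2 RPM as lowest, median and highest in sgTHAP1, 6.81, 6.89 and 6.98 in sgControl, and 7.20, 7.22 and 7.22 in untransduced libraries. These ranges did not overlap, and the changes were -0.35 ± 0.038 in sgTHAP1 against sgControl and -0.32 ± 0.046 in sgControl against untransduced (limma adjusted p = 1.28e-07 and 3.59e-06). COL6A2, on the same chromosome from 46098097 to 46132849, had 4.79 to 5.24 log2 RPM in sgTHAP1, which overlapped the 4.83 to 5.22 of sgControl, and 5.30 to 5.47 in untransduced libraries. Its change was -0.03 ± 0.072 in sgTHAP1 against sgControl (limma adjusted p = 0.726) and -0.33 ± 0.088 in sgControl against untransduced (adjusted p = 0.00255), and with the median scaling the change against untransduced cells had an adjusted p of 0.0573. The log2 ratio of COL6A1 to COL6A2 per kilobase was 1.10 to 1.38 in sgTHAP1, 1.42 to 1.69 in sgControl and 1.45 to 1.63 in untransduced libraries. The sgTHAP1 and sgControl ranges of this ratio did not overlap. The exact permutation p (two-sided) was 0.00216, the smallest that 6 against 6 libraries can give. It was 0.013 after adjustment over the 6 ratios of chains of 1 collagen type that were tested, the only one under 0.05. All 6 were picked after their values were seen, so these p-values add nothing to the lack of overlap. The test also shuffled libraries across guides. COL6A2 itself differed between the THAP1 guides by 0.25 and between the control guides by 0.21 (limma), which the test does not take into account. COL6A5 had 1 to 10 reads in sgTHAP1, 1 to 19 in sgControl and 1 to 4 in untransduced libraries, too few to order the groups, and its adjusted p (limma) was 0.909 in sgTHAP1 against sgControl.

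COL18A1, the multiplexin whose cleaved end is endostatin, had 4.80, 5.01 and 5.23 log2 RPM as lowest, median and highest in sgTHAP1, 5.59, 5.64 and 5.72 in sgControl, and 5.83, 5.85 and 5.97 in untransduced libraries. The change was -0.65 ± 0.057 in sgTHAP1 against sgControl (limma adjusted p = 9.16e-09) and -0.23 ± 0.07 in sgControl against untransduced (adjusted p = 0.00621), which with the median scaling became -0.075 and did not pass (adjusted p = 0.424). COL18A1 shares 20149 bp with SLC19A1 on the opposite strand, which limits it in the same way as COL4A3. COL7A1, the anchoring fibril of skin, had 3.10 to 3.51 log2 RPM in sgTHAP1, 3.34 to 3.55 in sgControl and 3.73 to 3.82 in untransduced libraries. Its change of -0.16 ± 0.067 in sgTHAP1 against sgControl was at the edge of the test (limma adjusted p = 0.0458) and did not pass in 19 of 28 alternative analyses. COL26A1 had 0.49 to 1.27 log2 RPM in sgTHAP1, 0.89 to 1.83 in sgControl and 2.04 to 2.30 in untransduced libraries. Its sgTHAP1 and sgControl ranges overlapped, and it changed by -0.69 ± 0.156 (limma adjusted p = 0.000842) and by -0.72 ± 0.191 (adjusted p = 0.00243), of which the change against untransduced cells did not pass with quantile normalization (limma adjusted p = 0.325).

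The guides were also compared with each other, since each pooled value joins 2 cell populations. Between sg2-THAP1 and sg1-THAP1, 9 of 28 collagen genes differed at an adjusted p under 0.05. Of these 6 were lower with sg2-THAP1, against 11.7% of all genes, and 3 were higher, against 28.3%. With both directions joined, the share of collagen genes that differed was below that of all genes. Lower with sg2-THAP1 were COL4A3, COL4A5, COL13A1, COL27A1, COL18A1 and COL4A2, and higher were COL6A1, COL6A2 and COL16A1. COL4A5 showed the largest difference among genes with more than 100 reads in every library, -0.50 ± 0.0627 (limma adjusted p = 1.48e-08). Between sg2-Control and sg1-Control 1 of 28 differed, COL6A2, which was higher with sg2-Control by 0.21 ± 0.0598 (limma adjusted p = 0.0316), against 1.82% of all genes, and 0 were lower, against 2.06%. In either direction the share of all genes was 3.88%. Against sgControl, the median change of the 28 genes was -0.61 with sg1-THAP1 and -0.77 with sg2-THAP1, and 0 genes were higher with either guide at an adjusted p under 0.05. With sg1-THAP1 21 genes were lower, against 39.3% of all genes lower and 20.1% higher. With sg2-THAP1 18 were lower, against 30.6% lower and 25.6% higher.

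**Figure D4:**
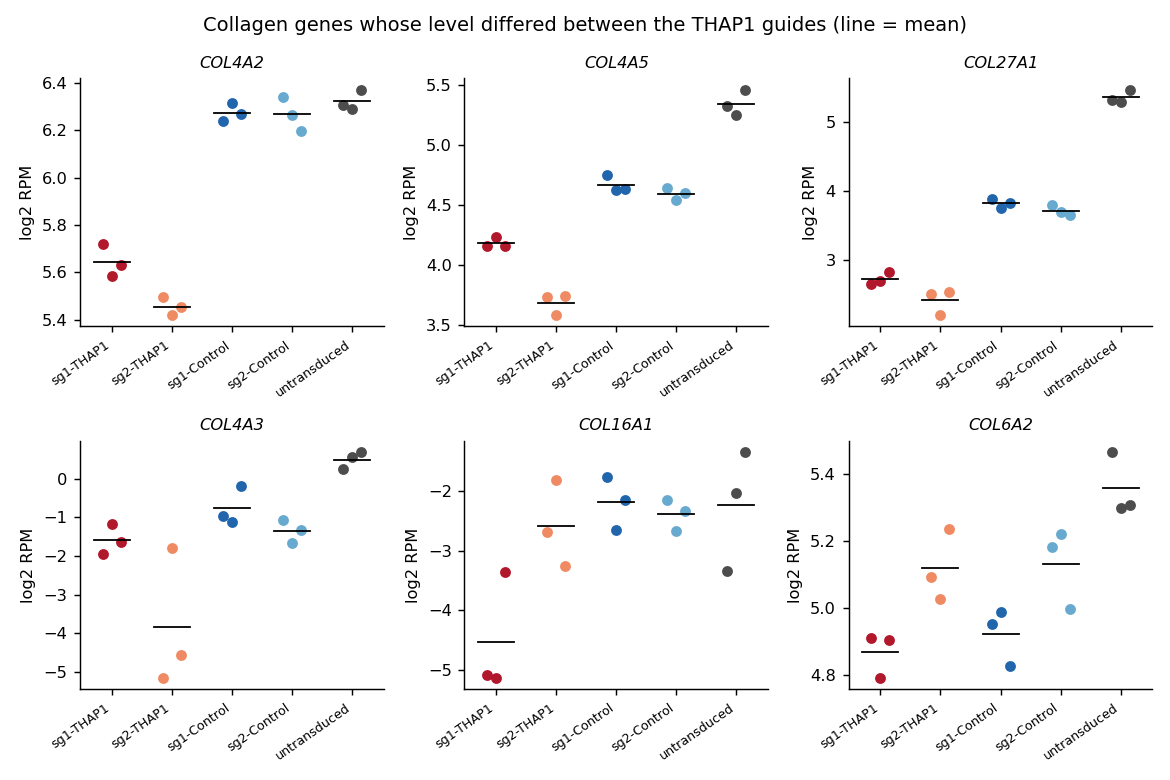
Level in log2 RPM of 6 of the collagen genes that differed between the THAP1 guides, 1 point per library and a line at the mean of 3 libraries; the vertical axes differ between panels and do not start at 0. COL4A2, COL4A5 and COL27A1 lie lower with sg2-THAP1 than with sg1-THAP1 and with both guides below sgControl, while COL6A2 with sg2-THAP1 overlaps sg2-Control and lies above sg1-Control.

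Collagen chains are hydroxylated and folded in the endoplasmic reticulum, exported, trimmed outside the cell, cross-linked by lysyl oxidases, bound by integrins and discoidin receptors, and degraded by matrix proteases. Of 54 genes with these roles or inhibiting these proteases, 47 were tested. At an adjusted p under 0.05, 23 were lower in sgTHAP1 than in sgControl, against the 32.6% of all genes, and 8 were higher, against 20.2%, with a median change of -0.23. Genes of modification and folding were evenly split, with 6 lower and 6 higher of 18. The collagen chaperone SERPINH1 (HSP47) had 5.98 to 6.49 log2 RPM in sgTHAP1 against 5.56 to 5.77 in sgControl, a change of 0.60 ± 0.074 (limma adjusted p = 1.02e-06). LEPREL4, a partner of the lysyl hydroxylases, was higher by 0.36 ± 0.0356, and the lysyl hydroxylase PLOD2 changed by -0.26 ± 0.0392 (limma adjusted p = 4.37e-08 and 1.05e-05). Of 3 export genes, MIA3 (TANGO1), which loads collagen into carriers, changed by -0.24 ± 0.0387 and KLHL12 by 0.23 ± 0.06 (limma adjusted p = 3.18e-05 and 0.00314), and CTAGE5 by -0.10 ± 0.0516 (adjusted p = 0.122).

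Processing and cross-linking genes were lower in 6 of 13 and higher in 0, beside 32.6% and 20.2% of all genes in sgTHAP1 against sgControl. The lysyl oxidase LOX had 1.81 to 2.31 log2 RPM in sgTHAP1, 2.60 to 2.95 in sgControl and 4.40 to 4.64 in untransduced libraries, so that its groups did not overlap. It changed by -0.84 ± 0.0894 in sgTHAP1 against sgControl and by -1.74 ± 0.109 in sgControl against untransduced (limma adjusted p = 1.36e-07 and 2.29e-11). The procollagen N-proteinases ADAMTS3 and ADAMTS2 changed by -0.81 ± 0.0884 and -0.60 ± 0.0835 in sgTHAP1 against sgControl (limma adjusted p = 1.84e-07 and 4.45e-06). Collagen receptors were lower in 5 of 7 and higher in 0, beside the same shares of all genes. The discoidin receptor DDR2 had -0.47 to 0.27 log2 RPM in sgTHAP1, 1.49 to 2.10 in sgControl and 0.36 to 0.71 in untransduced libraries, so that sgControl stood above both other groups. DDR2 changed by -1.80 ± 0.15 in sgTHAP1 against sgControl and by 1.20 ± 0.183 in sgControl against untransduced (limma adjusted p = 4.51e-09 and 7.97e-06). The integrin chains ITGB1 and ITGA1 changed by -0.39 ± 0.0406 and -0.61 ± 0.103 in sgTHAP1 against sgControl (limma adjusted p = 1.12e-07 and 4.9e-05).

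Degradation genes were lower in 5 of 6 and higher in 1, beside 32.6% and 20.2% of all genes. This list joins proteases with their inhibitors TIMP1, TIMP2 and TIMP3, so its count has no single direction for degradation. The higher gene was TIMP1, by 0.35 ± 0.0773 (limma adjusted p = 0.000791). TIMP3, a protease inhibitor bound to the matrix, had 4.45 to 4.78 log2 RPM in sgTHAP1, 5.69 to 5.97 in sgControl and 5.76 to 5.82 in untransduced libraries, with a change of -1.23 ± 0.0567 in sgTHAP1 against sgControl (limma adjusted p = 8.28e-13). TIMP2 changed by -0.56 ± 0.0683 (adjusted p = 9.04e-07), and the gelatinase MMP2, with at most 4 reads in a sgTHAP1 library and 19 in a sgControl one, by -2.51 ± 0.496 (limma adjusted p = 0.000242). In sgControl against untransduced 25 of the 47 were lower and 5 higher at an adjusted p under 0.05, beside 40.5% and 28.1% of all genes, and 11 of the 13 processing genes were lower.

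**Figure D5:**
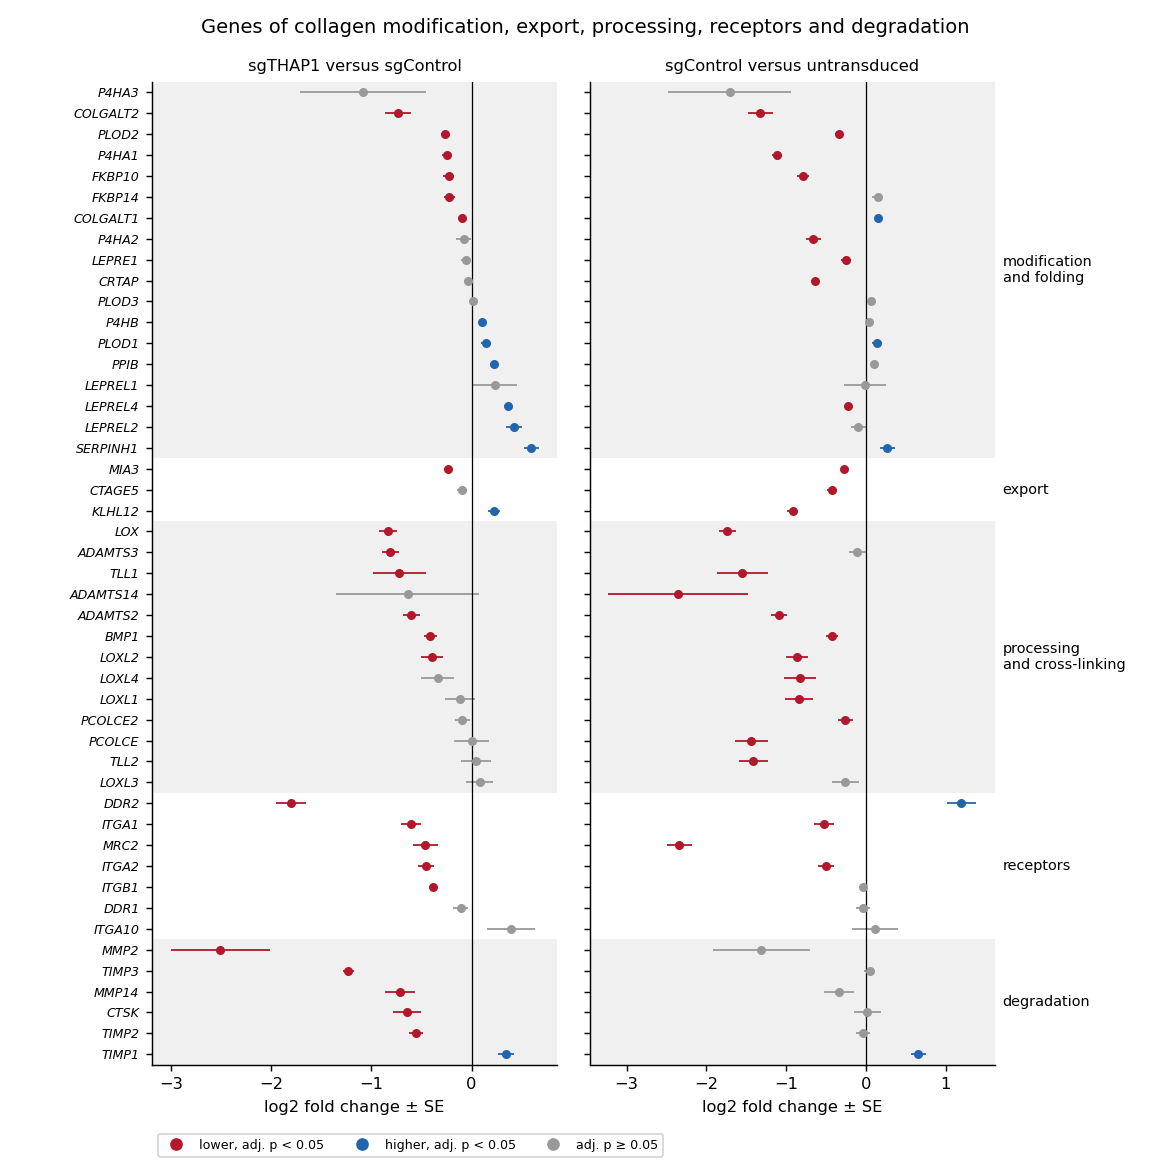
Fitted log2 fold change with its SE of 47 tested genes of collagen modification, export, processing, binding and degradation, in sgTHAP1 versus sgControl (left) and sgControl versus untransduced (right); red points are lower and blue points higher at an adjusted p under 0.05. DDR2 lies at -1.80 on the left and 1.20 on the right, and the processing genes lie at or left of 0 in both panels except LOXL3 and TLL2 on the left.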

How the data were processed

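RNA-seq of HEK-293T cells was deposited as 1 table of 35805 genes by 15 libraries. Strand-specific libraries of polyA RNA were made, per the labels. The submitters' processing notes name cutadapt, HISAT2 and GRCh38. For the annotation release, and for whether counting used strand, the entry is: not given in the sources used here. The deposited values are log2 RPM, made by the authors in SeqMonk from whole reads. A gene with 0 reads is listed at the log2 of 0.9 read. At least 99.65% of values in each library came out within 0.01 of a whole read. The authors' 7 columns of means and 3 columns of log2 fold changes were not used.

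Genes at -2 log2 RPM or above in 3 or more libraries were fitted with limma 3.58.1 in R 4.3.3 (lmFit, then eBayes with a trend) over all 15 libraries with 3 coefficients, sgTHAP1, sgControl and untransduced, or 5, 1 per group, for the guides. P-values were adjusted by Benjamini-Hochberg over 16787 genes. Calls needed an adjusted p below 0.001 with over 2-fold change, and those in sgTHAP1 against sgControl were also given after removal of genes called between sgControl and untransduced. Log2 ratios per kilobase of 6 pairs of chains, picked after their values were seen, were compared between sgTHAP1 and sgControl by the exact two-sided permutation test, whose smallest p is 0.00216. The limma fit with 3 coefficients, and not the permutation test, was run on simulated reads. These held no difference between guides and an added spread below that fitted within groups. That run therefore does not cover differences between guides.

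Genes described in full were those called in a comparison, the 3 with the highest mean log2 RPM in each class, both members of head-to-head pairs, and of each pathway sublist up to 3 with the smallest adjusted p. MIA3, KLHL12 and CTAGE5 make up the whole export sublist. COL2A1, COL5A2, COL11A2, COL14A1 and COL16A1 were added to complete their classes. The collagen genes and lists were chosen with earlier results of these data known. Lengths per kilobase are from GENCODE 44, and promoter sequences from RefSeq. Libraries of 1 guide were counted as independent, and they are biological replicates by the study's methods. The labels name no batch. Alternatives were other normalizations, filters, a pseudocount of 0.5 RPM, voom on the recovered reads, array weights, single guides, a replicate block and leaving out each library. The replicate numbers did not pair the libraries.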

Additional observations from a re-analysis of the deposited data

Results flagged for a closer look

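In 56 tests of 6 libraries each, 6 collagen values stood apart from the other 5 libraries of their group by Dixon's criterion. Chance meets it in about 1 of 20 groups where all values come from 1 normal population. Each group here joins 2 guides, so that rate need not hold. In sgTHAP1, COL9A2 had -1.17 log2 RPM in sg2-THAP1 replicate 2 against -0.49 to -0.29 in the others, and COL4A4 had -2.12 in sg2-THAP1 replicate 3 against -1.36 to -0.98. In sg1-THAP1 replicate 2, COL6A5 had -4.98 log2 RPM, or 1 read, against -2.62 to -1.94 in the others, COL25A1 had 2.79 against 2.43 to 2.56, and COL4A6 had 3.29 against 2.96 to 3.07. In sgControl, COL4A1 had 4.71 log2 RPM in sg1-Control replicate 1 against 4.81 to 4.87.

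The test of sg2-THAP1 against sg1-THAP1 (limma, adjusted over all genes) passed for 9 collagen genes. With both directions joined, this was a smaller share of the tested collagen genes than the share that passed among all genes tested. The log2 differences were -2.27 for COL4A3 (adjusted p = 0.000853), -0.50 for COL4A5 (adjusted p = 1.48e-08), -0.45 for COL13A1 (adjusted p = 0.0278) and -0.31 for COL27A1 (adjusted p = 0.00326). They were -0.22 for COL18A1 (adjusted p = 0.000561), -0.19 for COL4A2 (adjusted p = 0.000337), 0.11 for COL6A1 (adjusted p = 0.0171), 0.25 for COL6A2 (adjusted p = 0.000709) and 1.95 for COL16A1 (adjusted p = 0.0364). COL4A3 and COL16A1 rest on at most 14 reads in a sgTHAP1 library. The test of sg2-Control against sg1-Control passed for COL6A2, with a difference of 0.21 (limma adjusted p = 0.0316).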

How the results depend on the processing

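Of 1736 values of single collagen genes under alternatives, 1606 kept their direction and side of the threshold, 88 no longer passed, 15 newly passed and 27 changed sign. The cause was not tested. In sgTHAP1 against sgControl, the 1 collagen gene called became 2 with 1 coefficient per guide, with either THAP1 guide or either control guide alone, with quantile normalization, without a filter and with array weights, 6 without the removal step, and 8 at an adjusted p under 0.05 and 2-fold without removal. Leaving out 1 library gave 1 to 2 calls, and 18 to 22 genes lower at an adjusted p under 0.05, against 21. In sgControl against untransduced, the 9 calls became 5 with quantile normalization and 7 to 10 with 1 library left out. In sgTHAP1 against untransduced, 15 became 14 to 15. The 9 differences between THAP1 guides became 6 to 11, and the 1 between control guides became 0 to 1, and 0 without a filter. The 23 lower pathway genes became 22 to 24, and the 8 higher 7 to 8.

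COL12A1 in sgTHAP1 against sgControl became -0.31 with sg1-THAP1 alone, -0.26 against sg2-Control alone, -0.0026 with a pseudocount and -0.10 to 0.16 with 1 library left out. With 1 library left out, COL12A1 became -0.18 to 0.38 in sgControl against untransduced and -0.17 to 0.38 in sgTHAP1 against untransduced. COL6A2 in sgTHAP1 against sgControl became 0.092 with sg2-THAP1 alone, 0.072 against sg1-Control alone, 0.033 with quantile normalization, 0.081 with median scaling, 0.052 with array weights, and -0.082 to 0.0073 with 1 library left out. COL6A5 became 0.39 with sg2-THAP1 alone, 0.57 against sg2-Control alone, 0.13 with quantile normalization, 0.013 with median scaling, 0.073 with array weights, and -0.60 to 0.34 with 1 library left out. COL4A2 in sgControl against untransduced became 0.10 with median scaling.

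With the replicate number as a block, 21 collagen genes were lower at an adjusted p under 0.05 in sgTHAP1 against sgControl and 19 in sgControl against untransduced. Deviations from the group means were correlated over 30 pairs of same-numbered libraries of different groups. They gave -0.13 to 0.0441, so the numbers were not read as pairing. Over 60 pairs with unlike numbers the highest correlation was 0.23, between sg2-THAP1 replicate 3 and sg2-Control replicate 2. Genes with few reads limit the precision: COL4A3, COL6A5, COL14A1 and COL16A1 had 3 or fewer reads in at least 1 library.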
